A study of Ceratopteris richardii with 6 samples.

Results

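In seedlings of the fern Ceratopteris richardii, 171 of the 88641 assembled genes fell on each of both days of exposure to the synthetic auxin 2,4-D. They were chosen from the deposited TPM, which give a gene's share of all transcripts after correction for gene length. On the log2(TPM + 1) scale, the group mean had to drop by at least 0.5 between mock and 24 h and again by at least 0.5 between 24 h and 48 h. The highest group mean also had to be at least 10 and under 1000 TPM. The drops are therefore how the genes were found, and their sizes are given as a description.

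The 3 groups were mock seedlings, seedlings kept for 24 h on medium with 2 µM 2,4-D, and seedlings kept there for 48 h, with 2 libraries each. All were whole sporophyte seedlings of the wild type RNWT1, grown from spores for 30 days on half-strength MS medium under long days, per the labels' protocols. The table heads the mock columns as 0 days, and 0 untreated libraries at 24 h or 48 h were analysed here, so if the mock seedlings were harvested at that time, 2,4-D, transfer to new medium and plant age cannot be told apart. Whether a group's 2 libraries stem from different cultures is not stated, so the spread that the tests use may be technical.

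Auxin is the plant hormone that sets up roots, shoots and vascular tissue. In flowering plants it is bound by F-box receptors, which mark Aux/IAA repressor proteins for destruction and so free the ARF transcription factors that switch genes on or off. In general, a transcript's share goes down because it is made less or broken down faster, because other transcripts rise, or because the cells that hold it become a smaller part of the plant. In bulk samples, fewer cells of a type and less RNA per cell cannot be told apart. 2,4-D is used as a persistent auxin in plant culture and as a herbicide against broad-leaved plants. The sporophyte is the fern's generation with roots and fronds.

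The table does not pair its Trinity assembly IDs with gene names, and 0 of the 171 IDs matched the 36816 genes of the RefSeq table of assembly C.richardii_v2. Gene functions, sequences and positions are therefore not given, no pathway or cell type list could be applied, and the labelled tissue could not be checked against markers. At most 2 IDs are named for each comparison. Read depth is unknown, since TPM keep none.

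The genes lost a large part of their level on each day. The median TPM of the 171 genes was 33.4 and 40.6 in mock replicates 1 and 2, 16.9 and 17.7 at 24 h, and 8.33 and 7.42 at 48 h. Both medians of each later group were below both of the group before. In relation to its own mock mean, the median gene had 58.2% left at 24 h and 25.3% at 48 h, while the 13950 tested genes with a mock mean in the same TPM range had a median of 104% and 92.3%. The level left ranged from 18.7% to 70.2% at 24 h and from 3.51% to 45.3% at 48 h. The median fall on the log2 scale was -0.75 on the first day and -0.95 on the second, against a median change of 0.10 and -0.18 over all tested genes.

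**Figure D1:**
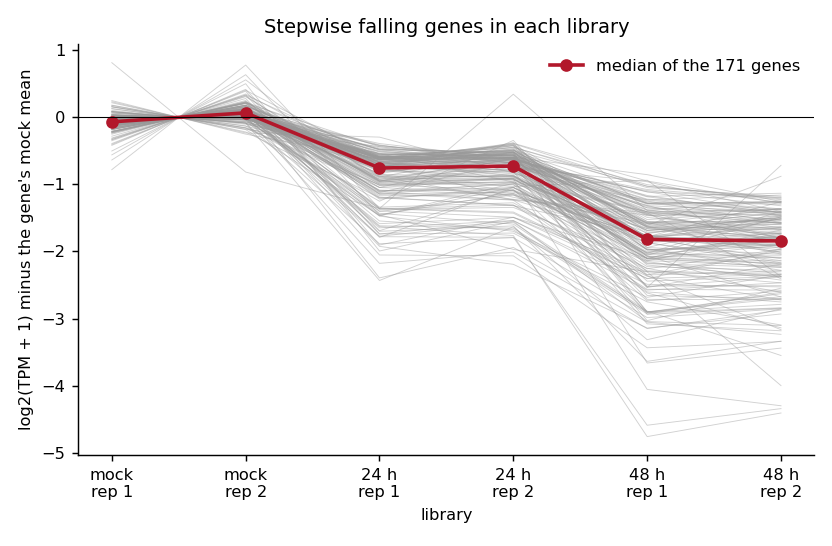
Log2(TPM + 1) of each of the 171 genes in the 6 libraries, relative to the gene's own mock mean (grey lines), with the median over genes in red. The median stepped down between groups and was nearly level between the libraries of a group, and 1 gene rose above its mock mean in 24 h replicate 2.

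Summed over the 171 genes, the share of the library's transcripts fell at each step. The rule asked a fall of every gene at both steps, so the direction was all but fixed and the sizes are a description. The sum was 12664 and 14279 TPM in the mock libraries, which was 1.27% and 1.43% of all TPM. It was 6973 and 7253 TPM at 24 h and 3146 TPM in both 48 h libraries, where it was 0.315% of all TPM. Mock replicate 2 had the highest sum, and the groups did not overlap. The mean sum in mock was 1.89 times that at 24 h and 4.28 times that at 48 h. The 10 most abundant genes held 35.3% of the mock sum.

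As the rule nearly requires, all 171 genes were at least 2-fold lower at 48 h than in mock by their mean TPM. Of these, 82 were at least 4-fold lower, 23 at least 8-fold lower and 12 at least 10-fold lower. A 2-fold drop within a single day was less common, with 56 genes on the first day, 96 on the second and 31 on both. The mean was under 10 TPM for 52 genes at 24 h and for 97 genes at 48 h, and under 1 TPM for 2 genes at 48 h. The number listed at 0 in any library was 0.

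The gene with the deepest fall over both days on the log2(TPM + 1) scale was LA_TRINITY_DN45074_c0_g1. It was at 179 and 190 TPM in mock, 59.0 and 53.6 TPM at 24 h, and 5.84 and 7.73 TPM at 48 h. The mean of 184 ± 7.97 TPM (SD, n = 2 libraries) in mock was 27.2 times the 6.79 ± 1.34 TPM at 48 h. The log2 change was -1.70 ± 0.12 (SE) on the first day and -2.89 ± 0.12 on the second. SHA_TRINITY_DN9744_c0_g2 had nearly the same course at a lower level. It went from 95.8 and 90.2 TPM in mock to 26.4 and 26.2 TPM at 24 h and 2.90 and 3.63 TPM at 48 h, which left 3.51% of the mock mean, less than the 3.68% of LA_TRINITY_DN45074_c0_g1, so the order of the 2 turned on the scale. For both genes the 2 libraries of a group were far closer to each other than the groups were. Both had been picked from genes whose libraries did not overlap between mock and 48 h, so nothing is read from this.

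On the log2(TPM + 1) scale, the 2 genes with the deepest falls of the second day had smaller falls on the first. RO_TRINITY_DN4490_c0_g1 was at 55.7 and 62.3 TPM in mock and still at 31.0 and 30.7 TPM at 24 h, then at 2.60 and 2.04 TPM at 48 h. Its log2 change was -0.91 ± 0.10 (SE) on the first day and -3.27 ± 0.10 on the second. SHA_TRINITY_DN3422_c0_g2, among the most abundant of the set, was at 521 and 461 TPM in mock, 315 and 341 TPM at 24 h, and 37.8 and 44.3 TPM at 48 h. Of its whole log2 fall, 16.3% came on the first day, the lowest share among the 171 genes. With a pseudocount of 0.1, LA_TRINITY_DN45074_c0_g1 fell further on the second day, with -3.05 against -3.00 for SHA_TRINITY_DN3422_c0_g2. Without 24 h replicate 1, the first fall of SHA_TRINITY_DN3422_c0_g2 was weaker, at -0.52 against -0.58 with all libraries. Without mock replicate 1 it was -0.49, short of the limit of -0.5, so this gene then left the set.

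On the same scale, the 2 genes with the deepest falls of the first day had smaller falls on the second. RT_TRINITY_DN8881_c0_g2 went from 18.7 and 23.0 TPM in mock to 3.14 and 4.67 TPM at 24 h and 1.62 and 1.31 TPM at 48 h. Its log2 change was -2.17 ± 0.19 (SE) on the first day and -0.98 ± 0.19 on the second. At such low levels the values depend on the pseudocount, and with 5 TPM in place of 1 they were -1.54 and -0.46. SHA_TRINITY_DN1041_c0_g1 went from 59.96 and 61.02 TPM in mock to 12.6 and 14.3 TPM at 24 h and 5.93 and 7.39 TPM at 48 h. Its log2 change was -2.09 ± 0.11 on the first day and -0.92 ± 0.11 on the second. With a pseudocount of 5 its first fall was -1.83, deeper than that of RT_TRINITY_DN8881_c0_g2.

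**Figure D2:**
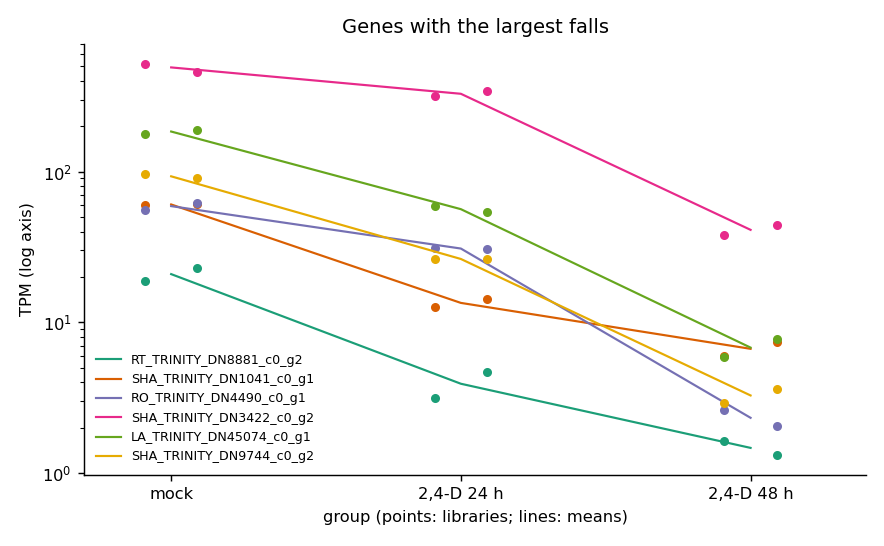
TPM (log axis) of the 6 genes named for the largest falls, with a point per library and lines through the group means. The lines of RO_TRINITY_DN4490_c0_g1 and SHA_TRINITY_DN3422_c0_g2 bend down after 24 h, and those of RT_TRINITY_DN8881_c0_g2 and SHA_TRINITY_DN1041_c0_g1 flatten.

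The most abundant genes of the set also went down at both steps, from the highest starting levels. The most abundant was at 614 and 1055 TPM in mock, 214 and 286 TPM at 24 h, and 162 and 145 TPM at 48 h. Its mock libraries were 1.72-fold apart, more than the 1.63-fold between its 24 h and 48 h means. The next was at 535 and 602 TPM in mock, 346 and 376 TPM at 24 h, and 213 and 219 TPM at 48 h, and kept 38.0% of its mock mean. The third was at 486 and 548 TPM in mock, 333 and 338 TPM at 24 h, and 104 and 99.4 TPM at 48 h, and kept 19.7%. All 3 had separate libraries at each step, as did 7.25% of all tested genes, lower each time. The means of these libraries had chosen the genes, so nothing is read from this. The second fall of the most abundant did not pass limma (adjusted p = 0.0593).

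The median depth of the fall was nearly the same in genes of low and high abundance. The 53 genes with a mock mean of 10 to 20 TPM had a median of 25.3% left at 48 h. The value was 25.8% for the 49 genes of 20 to 50 TPM, 24.95% for the 37 genes of 50 to 100 TPM and 25.9% for the 32 genes of 100 to 1000 TPM. The lowest value in a class was between 3.51% and 7.02% and the highest between 43.9% and 45.3%. The set made up 0.990% and 0.980% of all genes in the lower 2 classes and 1.84% and 2.01% in the upper 2. The rule set the same limits in every class, so the highest values and in part the medians follow from it. A pseudocount shrinks the falls of low genes, and the difference between classes was not tested.

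**Figure D3:**
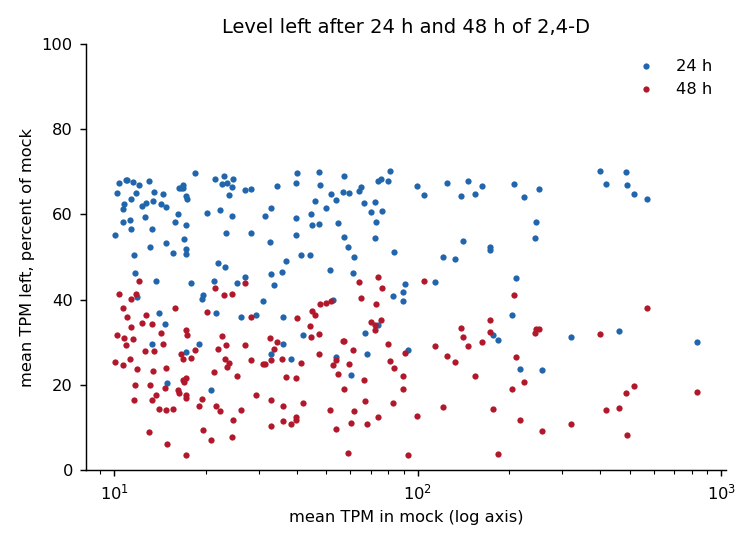
Mean TPM left at 24 h (blue) and 48 h (red) as a percent of the mock mean, against the mock mean (log axis), with 1 point of each colour per gene. The 24 h points lie between 18.7% and 70.2% and the 48 h points between 3.51% and 45.3% at all levels of abundance. The limits of the rule bound these values from above.

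Which day took the larger part of the fall differed from gene to gene and, for the set as a whole, with the scaling of the libraries. In the deposited TPM, 102 genes had the larger log2 fall on the second day and 69 on the first. The first day's share of the whole log2 fall had a median of 46.3%, ranged from 16.3% to 71.2%, and lay between 40% and 60% in 88 genes. After trimmed-mean rescaling, which brings the median change of all tested genes close to 0 at both steps, the numbers turned to 65 genes with the larger fall on the second day and 106 on the first. The medians were then -0.84 on the first day and -0.77 on the second. The rule put a limit on both steps, so these numbers are a description.

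In a limma test of the difference between the steps, 37 of the 171 genes passed with a larger second fall and 11 with a larger first fall. These were 21.6% and 6.43% of the set. Over all tested genes, 21.4% passed in the direction of the first count and 7.04% in that of the second, and among genes in the TPM range 30.9% and 11.0% did. The rule had limited both steps of the 171 genes and of no others, so nothing is read from the counts. Rescaling by trimmed means gave 18 and 20 genes, and quantile normalization 22 and 17. The counts were 22 and 3 without 24 h replicate 1 and 19 and 5 without 24 h replicate 2. The number with a larger first fall was 17 without mock replicate 1, 7 without mock replicate 2 and 6 without 48 h replicate 2.

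**Figure D4:**
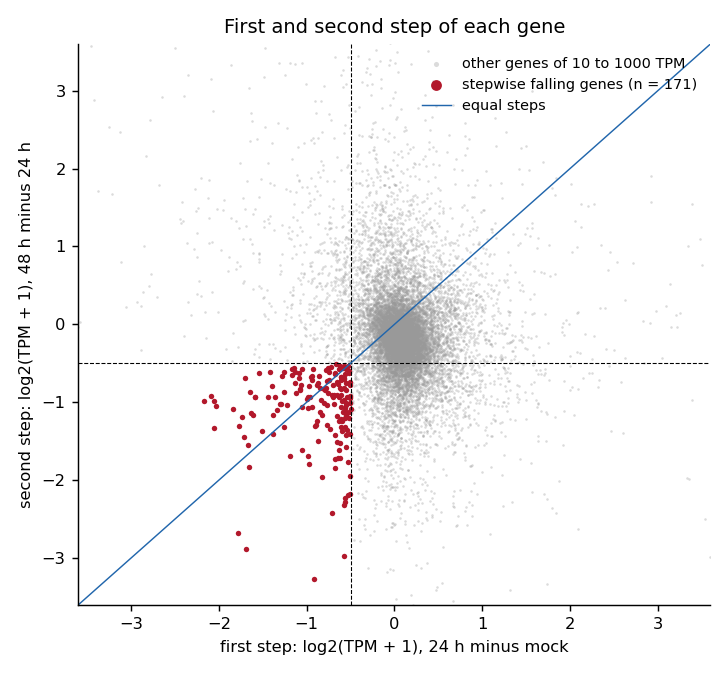
First step (24 h minus mock) against second step (48 h minus 24 h) in log2(TPM + 1) for genes whose highest group mean was 10 to 1000 TPM, with the 171 genes in red, dashed lines at the limits of -0.5 and a blue line where both steps are equal. Red points lie on both sides of the blue line, and 85 genes fall outside the axes.

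Genes that fell on the first day fell again on the second about as often as any gene in the TPM range. Of the 845 genes in the TPM range that fell by at least 0.5 on the first day, 171 (20.2%) fell by at least 0.5 again, 313 stayed within 0.5 and 361 rose by at least 0.5. Over all 15731 genes in the range, 19.99% fell by at least 0.5 on the second day. Of the 3144 genes that fell by at least 0.5 on the second day, the 171 were 5.44%, while 2479 had stayed within 0.5 on the first day and 494 had risen, and 5.37% of all genes in the range fell on the first day. In the other direction, 236 of the 1454 genes that rose by at least 0.5 on the first day (16.2%) rose again on the second. Both steps use the same 24 h libraries, with opposite sign, and these shares were not tested.

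Most of the 171 genes also passed the test at each step, though the same contrasts had chosen them and nothing is read from the counts. By limma with Benjamini-Hochberg adjustment over all 32225 tested genes, 150 of the 171 were lower at 24 h than in mock, where 5.07% of all tested genes were. At 48 h, 159 were lower than at 24 h (28.5% of all tested genes) and 169 lower than in mock (22.5%). Both steps passed in 145 genes, against 1.22% of all tested genes. That background percentage comes from 393 genes. Both counts depended on the settings. With no filter, both steps passed in 119 of the 171 genes and in 220 of all tested genes. With no trend, the counts were 124 and 246. With most single libraries left out, both counts were also lower. The 21 genes that did not pass at 24 h had a median first step of -0.56 and a median mock mean of 18.5 TPM. The values were -0.78 and 39.9 TPM for those that passed. The median absolute log2 difference between the mock libraries was 0.43 in the 21 genes and 0.16 in those that passed.

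In 168 of the 171 genes, both mock libraries were above both 24 h libraries and those above both 48 h libraries. That order was found in 7.25% of all tested genes and in 9.68% of genes in the TPM range. The means of these same libraries had chosen the genes, so nothing is read from the count. The other 3 had a library out of order. The first of them was at 28.4 and 8.50 TPM in mock, 5.52 and 20.2 TPM at 24 h and 5.38 and 5 TPM at 48 h, so its mock replicate 2 was below its 24 h replicate 2. The second was at 12.5 and 10.3, 4.19 and 8.73, and 1.13 and 6.52 TPM in mock, 24 h and 48 h, and its 48 h replicate 2 was above its 24 h replicate 1. The third was at 37.1 and 51.4, 23.7 and 20.8, and 22.3 and 7.62 TPM, and its 48 h replicate 1 was above its 24 h replicate 2. In these 3 genes neither step passed.

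The 2 mock libraries differed more in these genes than in all genes of that range of abundance. Mock replicate 2 was higher than replicate 1 in 132 of the 171 genes (77.2%), against 52.7% of the 13950 tested genes with a mock mean in the range. The median of replicate 2 minus replicate 1 was 0.13 on the log2 scale in the 171 genes and 0.01 in all genes of that range, and the median absolute difference was 0.17 against 0.10. At 24 h the median absolute difference was 0.12 against 0.08, and at 48 h it was 0.17 against 0.08. The range was set by the mock mean only, so the later groups are not compared at equal abundance. By 48 h the 171 genes had a median mean of 7.67 TPM, while the median gene of the range kept 92.3% of its mock mean. On the log2(TPM + 1) scale, the 2 mock libraries were at least 2-fold apart in 5 of the 171 genes, 4 of them higher in replicate 2. The same held for 0.258% of the genes in the range. The part of this difference in the falls was not tested, and genes are not independent replicates. With mock replicate 1 left out the rule found 205 genes, 159 of them among the 171, and with mock replicate 2 left out it found 164, of which 146 were among the 171.

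**Figure D5:**
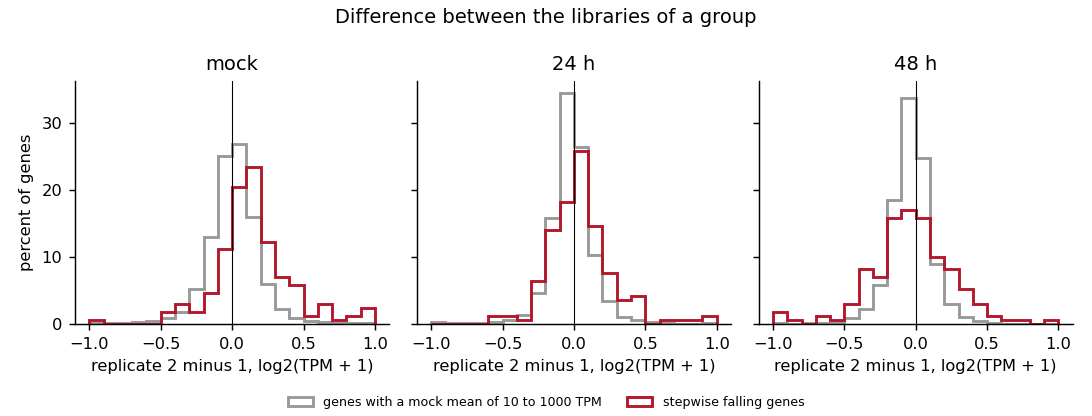
Replicate 2 minus replicate 1 in log2(TPM + 1) within each group, as percent of genes per bin, for the 171 genes (red) and all tested genes with a mock mean of 10 to 1000 TPM (grey), with differences beyond 1 counted in the outermost bins. In mock the red outline is shifted to the right, with a median of 0.13 against 0.01.

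Which genes met the rule depended in part on single libraries. Of the 171 genes, 110 met the rule in each of the 6 tables with a library left out, and 94 met it there and after both rescalings. Those 94 genes had a median of 20.03% of mock left at 48 h, with median steps of -0.89 and -1.06. Many genes lay close to the limits, and 58 of the 171 had a step weaker than -0.6. The gene nearest the limit of the first step had -0.5001, and the nearest outside it had -0.4989. For the second step the values were -0.513 and -0.497. The least abundant gene inside reached 10.03 TPM and the most abundant falling gene under the limit 9.98 TPM. A further 101 genes below 10 TPM and 9 genes of at least 1000 TPM met both step limits.

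The IDs of the table begin with 1 of 5 prefixes, with no key to them in the labels or the file, and the rule did not use them. Of the 171 genes, 45 began with SHA, 36 with LA, 32 with RO, 29 with LE and 29 with RT. SHA genes were 26.3% of the set and 20.03% of tested genes with a mock mean in the range. LA genes were 21.1% of the set and 25.05% of that range, and the remaining prefixes differed by less. Of the genes of each prefix in the range, the set took 1.61% for SHA and between 1.03% and 1.29% for the others. The median first step was -0.94 for SHA and between -0.75 and -0.64 for the others, while the median second step was -1.13 for RO and between -0.96 and -0.93 for the others. None of these differences was tested.

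Genes of 1 assembly component can be versions of the same locus or close relatives and can share reads. The 171 genes came from 166 components, and 147 were alone in theirs. In 4 components more than 1 gene belonged to the set, 9 genes in all, so these genes are not independent. Most of these components carried the prefix SHA, so the SHA share given above counts some components more than once. In 1 of these components all 3 genes were in the set, with a sum of 58.7 and 86.3 TPM in mock, 32.4 and 29.2 TPM at 24 h, and 16.3 and 16.2 TPM at 48 h.

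The same components held 20 other genes, which the rule had left out, and 16 of them, from 13 components, were tested. Their median log2 change was -0.02 on the first day and -0.56 on the second, against 0.10 and -0.18 over all tested genes. By limma with Benjamini-Hochberg adjustment, 2 of the 16 were lower and 1 was higher at 24 h than in mock, where 5.07% and 11.0% of all tested genes were. At 48 h, 8 of the 16 were lower than at 24 h, against 28.5% of all tested genes. The second-day changes of the 16 genes ranged from -2.73 to 0.22. The most abundant of them was at 1184 and 1333 TPM in mock, 902 and 1029 TPM at 24 h, and 138 and 151 TPM at 48 h. It dropped by 0.38 and then by 2.73 on the log2 scale, so it was above the TPM range and short of the limit for the first step. Of the 19 components with several genes, 15 met both step limits when the TPM of all their genes were summed, although these sums hold the genes chosen by the same limits and are in part made of them alone.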

How the data were processed

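The authors deposited 1 table of TPM per assembled gene with 6 libraries, credited to RSEM by its file name, and each column sums to about the same total. The tools in the submitters' processing notes are RSEM 1.3.2, STAR 2.7.2b, Bowtie2 2.3.4.3 and Trim Galore 0.5.0, with the Arabidopsis build TAIR10 and without roles or order. The 0d columns were matched to the mock libraries, and the number of columns without a library was 0. The depth per library is unknown, so no counting interval is given.

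The 32225 genes that reached 1 TPM in 2 or more libraries were fitted as log2(TPM + 1) with limma 3.58.1 in R 4.3.3, with the group as factor, all 6 libraries and a mean-variance trend. Fold changes on that scale understate changes of low genes. Tests were two-sided and adjusted by Benjamini-Hochberg over all tested genes, with a threshold of 0.05. The fit was tested on simulated data. Rescaling factors were trimmed means of log ratios to mock replicate 1, with 30% of the ratios and 5% of the levels trimmed at each end. Named genes are the 2 with the largest fall in each of the 3 comparisons among genes whose libraries did not overlap. The genes, groupings and tests were chosen with earlier results of these data known. Alternatives were pseudocounts of 0.1 and 5, no filter, both rescalings, no trend, each library left out, a replicate block, other limits of the rule, and, added after seeing the data, sums per component.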

Additional observations from a re-analysis of the deposited data

How the results depend on the processing

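With a pseudocount of 5 the rule found 109 genes, with steps of at least 1 it found 23, and with steps of at least 0.25 it found 512. The other settings gave between 118 and 214. The median second step of the 171 genes was -1.09 with a pseudocount of 0.1, -0.72 with 5, -0.77 after trimmed-mean rescaling and -0.81 after quantile normalization. The number with the larger fall on the second day was 65 after trimmed-mean rescaling. Genes called with a larger second and a larger first fall numbered 18 and 20 after trimmed-mean rescaling, 22 and 17 after quantile normalization, 24 and 6 with no filter, and 24 and 5 with no trend. Genes of the whole table called lower at both steps numbered 220 with no filter and 246 with no trend. Leaving out a library gave 159 to 340 such genes, 19 to 37 of the 171 with a larger second fall and 3 to 17 with a larger first. These fits have fewer residual degrees of freedom and assume that the lone library varies like the other groups. Without 24 h replicate 1, the first fall of SHA_TRINITY_DN3422_c0_g2 did not pass (limma adjusted p = 0.0577, against 0.00608 to 0.0428 under the others). Across genes, replicate 2 minus replicate 1 in a group correlated with that in another group with r between -0.00846 and 0.052. The replicate numbers thus showed no pairing of libraries across groups, and whether cultures were shared is not stated. With a replicate block 143 of the 171 genes passed at both steps, against 145 without it. Over all 32225 tested genes, 353 passed with the block and 393 without it. The same contrasts had chosen the 171 genes, so nothing is read from these counts. The block changed no count of calls by over 1.5 times.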
